A study of Schizosaccharomyces pombe with 21 samples.

Results

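The genes described here are the 50 nuclear protein-coding genes of the fission yeast Schizosaccharomyces pombe whose standard symbol is mrp, mrpl or mrps followed by a digit. They encode proteins of the mitochondrial ribosome (mitoribosome), 35 of the large and 15 of the small subunit, and were chosen by symbol from the 6988 gene identifiers of the count tables. All 50 passed the filter on low counts, which kept 6234 genes. A further symbol match, mrp1, was left out because the annotation lists it as a non-coding RNA.

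HASX (strain BS1453, mating type h-) carries the asp1 allele H397A with a natMX marker, and lacks aps1 (kanMX), siw14 (hygMX) and spx1, where ura4MX took its place. WT is strain Sp1, also h-. Both were grown in log phase at 30°C in ePMGT medium with phosphate and moved to the medium without it. HASX was sampled after 1, 2 and 4 h of starvation and WT before the transfer (0 h) and after 1, 2 and 4 h. Each of the 7 groups had 3 libraries, labelled as biological replicates. HASX with phosphate was not analysed here, so the effect of the genotype before starvation cannot be told apart from its effect during it. Each genotype is represented by 1 strain. The effects of the 4 altered genes, and of ura4, whose transcript was counted in HASX only, cannot be told apart.

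The mitoribosome translates the few messenger RNAs of the mitochondrial genome, which in fission yeast encode mainly subunits of the respiratory chain and the ATP synthase. Its RNAs come from the mitochondrial genome, while nearly all of its proteins are encoded in the nucleus, made on cytosolic ribosomes and imported. By the current protein nomenclature, u marks a protein found in ribosomes of all domains of life, b one shared with bacteria, and m one particular to mitochondria. The annotation gives a name of this kind to 42 members, of which 21 are universal, 9 bacterial and 12 mitochondrial.

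The 21 libraries held 11.24 M to 23.68 M counts assigned to genes. The engineered genes were checked first. The aps1 transcript was at 3.20 to 5.99 counts-per-million (CPM) in 8 HASX libraries and at 156 to 215 CPM in the 12 WT libraries. The siw14 transcript was at 0.569 to 3.72 CPM in the same 8 HASX libraries and at 98.6 to 257 CPM in WT. The spx1 gene, pqr1 in the annotation, was at 43.3 to 99.6 CPM in the HASX libraries and 232 to 343 CPM in WT, and ura4 at 640 to 923 CPM in HASX and 0 in WT. The remaining HASX library, labelled HASX 4 h replicate 3, had 15.3 CPM of aps1 and 69.6 CPM of siw14, which goes against its label. It also had 306 CPM of asp1, against 82.8 to 110 CPM in the other HASX libraries, and its log2 CPM correlated at 0.896 and 0.893 with the other HASX 4 h libraries, where all other pairs within a group lay at 0.983 to 0.996. The members' median in it was 0.21 lower on the log2 scale than in the mean of the other HASX 4 h libraries. Most counts and values of named members that rest on HASX 4 h are therefore given with and without it. All values are CPM on library sizes scaled by the trimmed mean of M values (TMM), so less of a transcript per cell and more of other transcripts cannot be told apart.

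In WT with phosphate the members covered a 23.1-fold range of levels, from 9.25 CPM per kb of transcript (mrp49) to 213 CPM per kb (mrps16), with a median of 41.7 CPM per kb. The 5 highest were mrps16, mrpl31, mrps8, mrpl35 and mrpl32, with mrpl31 (protein mL60) next at 114 CPM per kb. The 5 lowest were mrp49, mrpl9, mrps26, mrpl3 and mrpl20. In HASX at 1 h the range was 147-fold, with mrp49 (mL61) lowest at 2.07 CPM per kb and mrpl27 highest at 304 CPM per kb. The median over members was 22.2, 29.5 and 24.0 CPM per kb in HASX at 1, 2 and 4 h, and 41.7, 40.7, 38.7 and 37.8 CPM per kb in WT at 0, 1, 2 and 4 h. Together the members took 0.175% ± 0.013 of all counts in HASX at 1 h and 0.274% ± 0.003 in WT at 1 h (SD, n = 3 each). This share rests on total counts without TMM, so it moves with the level of other transcripts. Cytosolic ribosomal protein genes, for example, took 2.67% of all counts in HASX at 1 h and 17.6% in WT at 1 h.

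At 1 h without phosphate, most mitoribosomal protein genes were lower in HASX than in WT. By edgeR's quasi-likelihood test with Benjamini-Hochberg adjustment over all 6234 genes, 38 of the 50 members were lower (76% of members, against 37.8% of all genes tested), and 2 were higher (36.4% of all genes). The members' median log2 fold change was -0.71, beside -0.01 over all genes tested and -0.19 over the 5005 protein-coding genes tested, and 44 of 50 members had a negative value. Of the members, 17 were lower by at least 2-fold (22% of all genes) and 1 was higher by at least 2-fold (23.6%). The counts were 35 to 38 lower and 2 higher when any single library was left out.

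**Figure D1:**
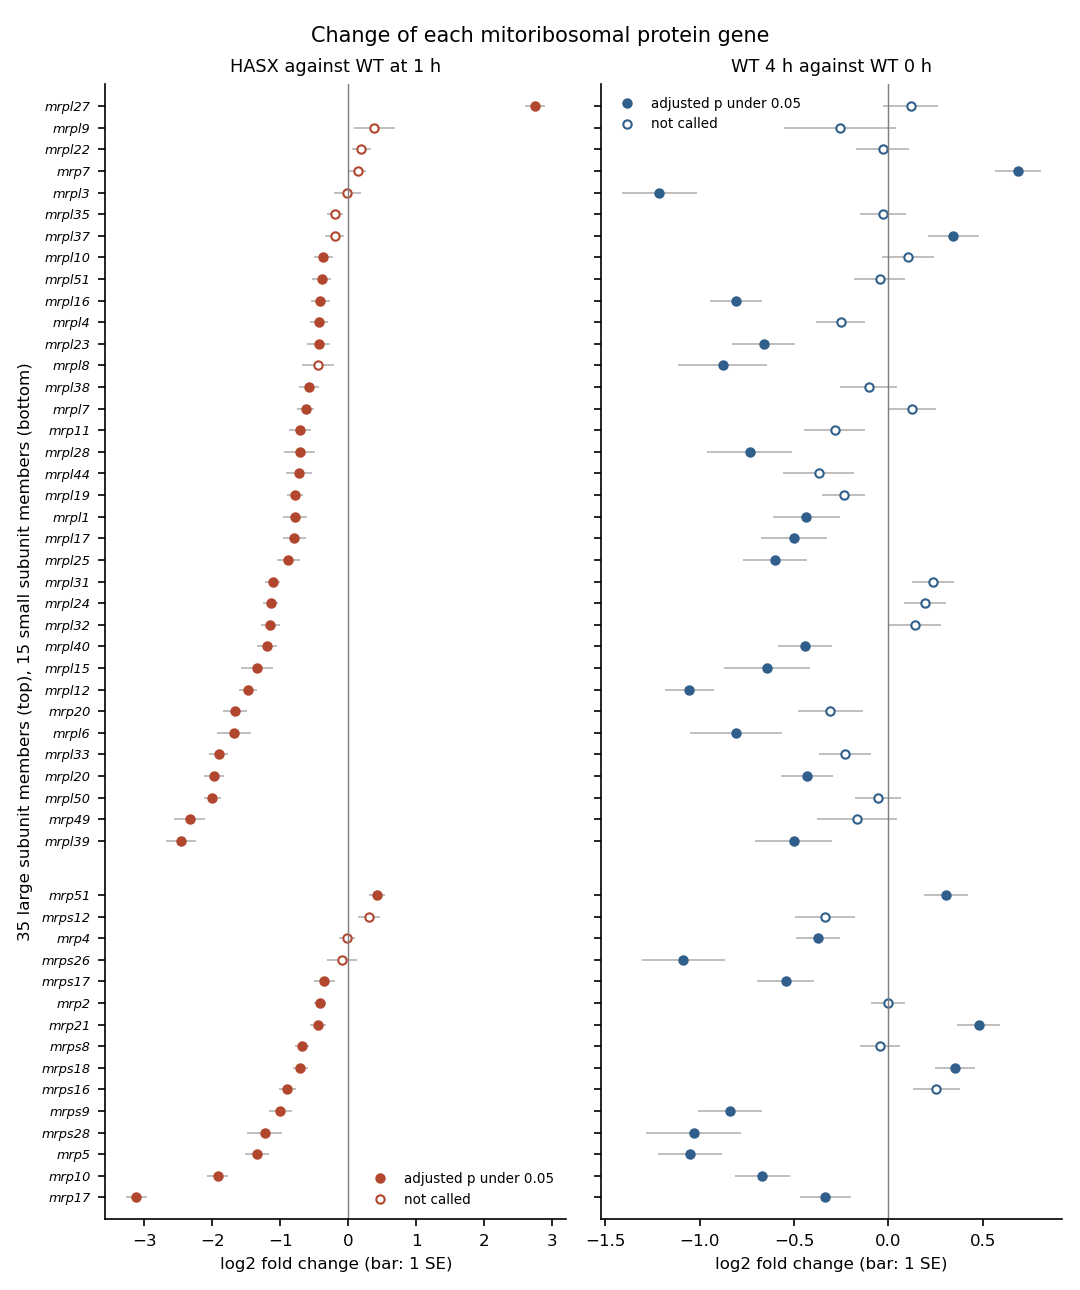
Log2 fold change of each of the 50 members in HASX against WT at 1 h (left) and in WT at 4 h against WT at 0 h (right), large subunit above small. Filled points passed the adjusted p of 0.05 and bars are 1 SE. On the left 38 members are lower and 2 higher; on the right 22 are lower and 5 higher.

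The largest fall was that of mrp17, which encodes bS6m, a protein of the small subunit. It had 11.4, 10.6 and 12.6 CPM in the HASX libraries at 1 h, against 102, 104 and 93.9 CPM in the WT libraries. The groups lay far apart, with a log2 fold change of -3.12 ± 0.15 (SE, adjusted p = 3.21e-13). The difference was -2.88 at 2 h and -2.20 ± 0.15 at 4 h on the log2 scale (adjusted p = 7.4e-11), or -2.06 at 4 h without the library labelled HASX 4 h replicate 3.

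Next came mrpl39, encoding bL33m of the large subunit, with 4.18, 3.45 and 5.40 CPM in HASX and 25.1, 24.1 and 22.7 CPM in WT at 1 h. Its log2 fold change was -2.46 ± 0.22 (adjusted p = 4.22e-09), and -2.31 ± 0.22 at 4 h, or -2.26 without the library labelled HASX 4 h replicate 3. The gene of the mitochondria-specific large subunit protein mL61, mrp49, had 2.38, 1.98 and 3.60 CPM in HASX and 13.8, 13.9 and 12.6 CPM in WT, a log2 fold change of -2.33 ± 0.23 (adjusted p = 1.77e-08). In neither gene did any HASX library reach the lowest WT library.

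Of the other large falls at 1 h, mrpl50 had 15.6, 11.9 and 14.2 CPM in HASX and 56.5, 57.1 and 53.2 CPM in WT (log2 fold change -2.00 ± 0.13). The mL58 gene mrpl20 had 8.99, 10.3 and 9.18 CPM in HASX and 35.7, 39.5 and 36.6 CPM in WT (-1.97 ± 0.15). The mS37 gene mrp10, whose budding yeast counterpart is oxidised by the intermembrane space import machinery, had 9.95, 9.02 and 9.63 CPM in HASX and 34.4, 35.9 and 38.2 CPM in WT (-1.92 ± 0.15). None of these groups overlapped, and all 6 genes were called lower also at 2 and 4 h and without any single library.

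One member went the other way by a large margin. The gene mrpl27, annotated as subunit L27 of the large subunit and distinct from the bL27m gene mrp7, had 159, 199 and 172 CPM in HASX at 1 h, 205, 245 and 243 CPM at 2 h and 283, 269 and 260 CPM at 4 h. In WT it had 24.0, 26.2 and 28.7 CPM at 1 h, 34.2, 27.3 and 25.6 CPM at 2 h and 28.1, 29.5 and 30.8 CPM at 4 h. The lowest HASX library was thus above every WT library. The log2 fold change was 2.75 ± 0.15 at 1 h, with an adjusted p of 3.05e-12. At 4 h it was 3.20 ± 0.16 (adjusted p = 8.65e-13), or 3.26 without the library labelled HASX 4 h replicate 3. In WT its change at 4 h against 0 h was 0.12 on the log2 scale and did not pass the test (adjusted p = 0.528). An exon of mrpl27 overlaps SPAC3A12.06c on the same strand in the annotation, and that gene changed by 0.01 on the log2 scale in HASX at 1 h (adjusted p = 0.966).

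The other member higher at 1 h was mrp51, which encodes bS1m, a small subunit protein needed in budding yeast for the translation of particular mitochondrial messenger RNAs. It had 131, 142 and 132 CPM in HASX and 102, 106 and 93.1 CPM in WT at 1 h, without overlap, a log2 fold change of 0.43 ± 0.12 (adjusted p = 0.00267). At 2 h it did not pass the test (0.21, adjusted p = 0.104), but it did with total-count scaling (0.16, adjusted p = 0.0371) and without the library labelled HASX 4 h replicate 3 (0.25, adjusted p = 0.0145). At 4 h it was higher by 0.32 on the log2 scale (adjusted p = 0.0174), or by 0.45 without that library (adjusted p = 0.000372), but lower with total-count scaling (-0.16, adjusted p = 0.039). An exon of mrp51 overlaps bbc1 on the opposite strand. In HASX, bbc1 was higher by 1.28, 0.84 and 1.10 on the log2 scale at 1, 2 and 4 h. Its mean at 1 h was 495 CPM in HASX and 204 CPM in WT. Whether reads of this pair were mixed was not tested.

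**Figure D2:**
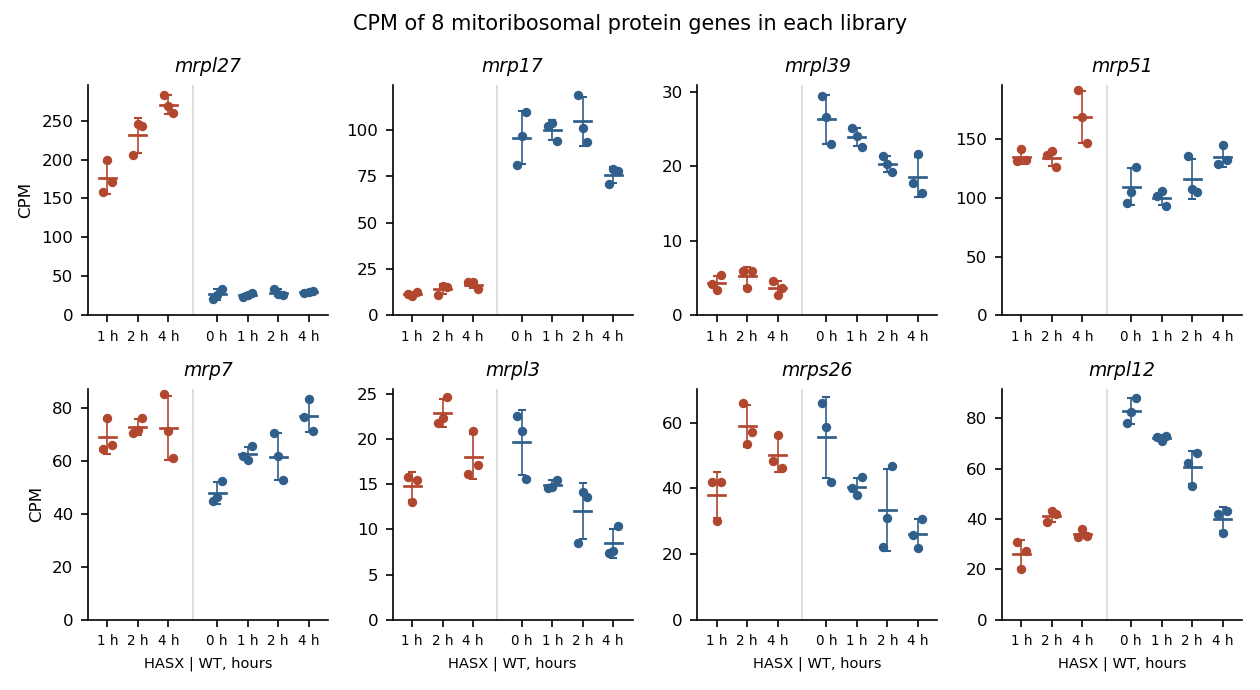
CPM of 8 members in each library (points) with the mean and SD of each group (lines and bars), HASX left of WT. The gene mrpl27 lies at 159 to 283 CPM in HASX, above all WT libraries, and mrp17 and mrpl39 lie below all WT libraries.

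At 2 and 4 h the members spread in both directions. At 2 h, 27 members were lower (39.3% of all genes) and 12 higher (37.5%) in HASX, with a median of -0.53. By at least 2-fold, 13 were lower (23.8%) and 2 higher (25.6%). At 4 h, 27 were lower (37.3%) and 8 higher (38.3%), with a median of -0.37, beside 0.05 over all genes, and 14 were lower (18.6%) and 3 higher (24.7%) by at least 2-fold. Without the library labelled HASX 4 h replicate 3 the 4 h counts were 24 lower (12 by at least 2-fold) and 8 higher (3 by at least 2-fold), with a median of -0.29. When libraries were scaled by total counts without TMM, they were 38 lower and 3 higher at 4 h, while the median of all genes moved to -0.43. The share of members higher was below that of all genes at each time.

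Taken over the 3 times, 23 members were lower in HASX at every one, while mrpl27 was higher at every one. Without the library labelled HASX 4 h replicate 3, 21 were lower at every time, as the 4 h calls of mrpl19 (-0.26, adjusted p = 0.0533) and mrpl1 (-0.29, adjusted p = 0.213) were lost, and mrp51 joined mrpl27. With total-count scaling 27 were lower at every time. The 23 include the uL30m gene mrpl33 at -1.91, -1.33 and -1.60 on the log2 scale and the bL32m gene mrpl32 at -1.14, -1.73 and -1.36, whose 4 h values were -1.67 and -1.21 without that library. Another 7 were not called at 1 h and were higher at 2 h, and 4 were lower at 1 h and higher at 2 h (mrp2, mrpl28, mrpl23 and mrpl4, of which mrpl4 alone with total-count scaling). One member, the bL27m gene mrp7, was called at no time, with 0.14, 0.24 and -0.09 at 1, 2 and 4 h. It was called higher at 2 h without the library labelled HASX 4 h replicate 3 (0.28, adjusted p = 0.0164) and with total-count scaling (0.19, adjusted p = 0.0351), and with that scaling it was lower at 4 h (-0.58, adjusted p = 2.99e-06). Its 4 h value without that library was 0.06, which was not called. The remaining 14 beside these were called at some times only, among them the uL16m gene mrpl16, which was lower at 1 h (-0.41) and higher at 4 h (0.38, or 0.42 without the library labelled HASX 4 h replicate 3, but -0.10 with total-count scaling).

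**Figure D3:**
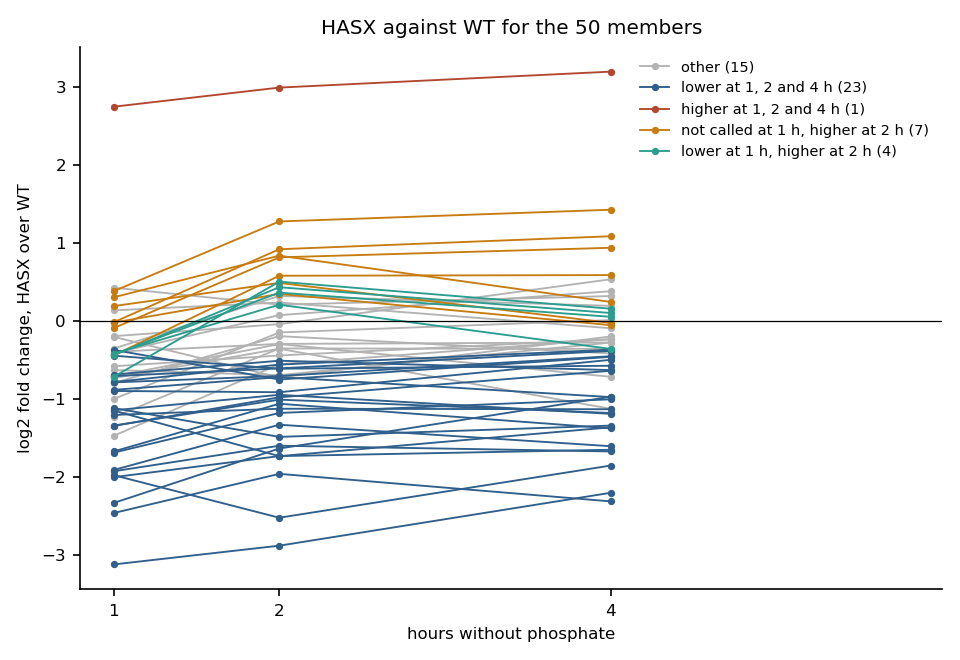
Log2 fold change in HASX against WT at 1, 2 and 4 h without phosphate, 1 line for each of the 50 members, coloured by the pattern of calls. The line of mrpl27 runs at 2.75 to 3.20, and 23 members were lower at all 3 times. With total-count scaling, fewer members were higher at 4 h (3 in place of 8).

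The 7 members called higher at 2 h but not at 1 h were mrpl9, mrpl3, mrps12, mrps26, mrpl8, mrpl22 and mrp4. The largest changes at 2 h among them were those of mrpl9 and mrpl3. The mL44 gene mrpl3 had 15.8, 13.0 and 15.5 CPM in HASX against 14.6, 14.7 and 15.5 CPM in WT at 1 h, where the groups overlapped. At 2 h it had 21.7, 22.3 and 24.6 CPM in HASX against 8.51, 14.1 and 13.6 CPM in WT, and at 4 h 16.1, 20.9 and 17.2 CPM against 7.43, 7.62 and 10.3 CPM. At both later times the groups were apart, by log2 fold changes of 0.92 with an adjusted p of 0.000292 and of 1.09 with an adjusted p of 7.02e-05. The 4 h value was 1.15 without the library labelled HASX 4 h replicate 3 and 0.61 with total-count scaling (adjusted p = 0.0329).

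The gene mrpl9 encodes uL3m, whose bacterial counterpart lies near the peptidyl transferase centre. It had 47.1, 48.0 and 47.9 CPM in HASX against 14.2, 19.1 and 25.6 CPM in WT at 2 h, a log2 fold change of 1.28 ± 0.30 (adjusted p = 0.000719). At 4 h it had 35.3, 39.6 and 103 CPM in HASX against 21.5, 20.8 and 24.0 CPM in WT. The third of these HASX values is from the library that goes against its label, and the log2 fold change was 1.43 with it and 0.79 without it (adjusted p = 0.00323).

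In mrps26, a small subunit gene, HASX had 65.9, 53.4 and 57.2 CPM at 2 h, above the 22.2, 31.1 and 46.8 CPM in WT (log2 fold change 0.82, adjusted p = 0.0022). At 4 h it was higher by 0.94 on the log2 scale (adjusted p = 0.000783), or 1.03 without the library labelled HASX 4 h replicate 3, but with total-count scaling the 4 h value was 0.46 and did not pass the test (adjusted p = 0.146). An exon of mrps26 overlaps meu22 on the opposite strand and the non-coding SPNCRNA.417 on the same strand. In HASX, meu22 was higher by 2.58, 2.12 and 2.08 and SPNCRNA.417 by 2.07, 1.84 and 4.37 at 1, 2 and 4 h on the log2 scale. SPNCRNA.417 was near the floor, with means of 1.19, 1.22 and 3.97 CPM in HASX and 0.28, 0.33 and 0.19 CPM in WT. The 4 h values of both partners include the library labelled HASX 4 h replicate 3. The uS12m gene mrps12, whose bacterial counterpart sits in the decoding centre, was higher by 0.84 at 2 h (adjusted p = 8.36e-05). The bL17m gene mrpl8 was higher by 0.58 at 2 h, a call lost without any one of WT 2 h replicate 1 or 2 or HASX 2 h replicate 2 or 3, and with total-count scaling (0.48, adjusted p = 0.144). It was higher by 0.59 at 4 h, a call lost without any one of WT 4 h replicate 1 (0.62, adjusted p = 0.0553), WT 4 h replicate 2 (0.49, 0.114) or HASX 4 h replicate 2 (0.40, 0.196). The 4 h value was 0.72 without the library labelled HASX 4 h replicate 3, 0.11 with total-count scaling (adjusted p = 0.743) and 0.51 in a fit of only the groups compared (adjusted p = 0.0525).

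In WT, members moved little in the first hours of starvation. At 1 h against 0 h, edgeR's quasi-likelihood test called 0 of 50 higher (4.27% of all genes) and 0 lower (5.02%), with a median log2 fold change of -0.09. At an unadjusted p under 0.05, 4 were higher and 6 lower, and DESeq2 called 0 higher and 3 lower. At 2 h, 3 were higher (10.9% of all genes) and 6 lower (6.66%), with a median of -0.19. These 2 h counts rested on single libraries, since they were 0 and 0 without WT 0 h replicate 2 or WT 2 h replicate 1, 0 higher and 1 lower without WT 0 h replicate 1, and 0 higher and 2 lower without WT 2 h replicate 2. They were 5 higher and 14 lower without WT 0 h replicate 3, and 6 higher and 15 lower without WT 2 h replicate 3. Without the library labelled HASX 4 h replicate 3, which enters only through the shared estimate of the spread and the scaling, 11 were lower. The lower calls over all genes rose there too, from 415 to 998. No higher call was left without HASX 1 h replicate 1, HASX 2 h replicate 2 or 3 or HASX 4 h replicate 2, and 0 of the 9 calls at 2 h held without each single library in turn.

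At 4 h against 0 h, 22 members had fallen in WT (44%, against 25% of all genes) and 5 had risen (26.5% of all genes). The members' median log2 fold change was -0.30, beside 0.01 over all genes, and 38 of 50 were negative. The changes were modest, since 5 fell by at least 2-fold (9.08% of all genes) and 0 rose by as much (8.16%). Without WT 0 h replicate 1, 13 had fallen. Without the library labelled HASX 4 h replicate 3, 28 had fallen, while the lower calls over all 6234 genes rose from 1561 to 2032. The members' summed level was 2326 ± 23.8 CPM in WT at 4 h and 2579 ± 30.3 CPM at 0 h (SD, n = 3 each).

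The largest fall was that of mrpl3, with 7.43, 7.62 and 10.3 CPM at 4 h and 22.5, 20.8 and 15.6 CPM at 0 h, a log2 fold change of -1.21 ± 0.20 (adjusted p = 5.05e-05). The bL12m gene mrpl12, whose bacterial counterpart forms the stalk that recruits translation factors, had 42.0, 34.6 and 43.2 CPM at 4 h and 78.1, 82.7 and 88.3 CPM at 0 h, or -1.06 ± 0.13 (adjusted p = 1.9e-06). The uS5m gene mrp5 had 26.8, 23.9 and 24.0 CPM at 4 h and 65.1, 49.8 and 40.0 CPM at 0 h, or -1.05 ± 0.17 (adjusted p = 4.74e-05). In all of these the lowest library at 0 h lay above the highest at 4 h.

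The gene mrps26 fell by 1.09 ± 0.22 on the log2 scale (adjusted p = 0.000425) and the uS15m gene mrps28 by 1.03 ± 0.25 (adjusted p = 0.00215). In mrpl8 the libraries stood at 17.9, 14.7 and 18.9 CPM at 4 h and 36.8, 36.9 and 21.2 CPM at 0 h, a log2 fold change of -0.88 ± 0.24 (adjusted p = 0.00455). These 6 falls were called without any single library. The median SD of the members over the 3 libraries at 0 h was 0.23 on the log2 scale, and 0.07 at 1 h and 0.10 at 4 h in WT.

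Of the 5 members that had risen in WT at 4 h, mrp7 rose most. It encodes bL27m, a large subunit protein whose bacterial counterpart reaches towards the peptidyl transferase centre. It had 76.4, 83.3 and 71.2 CPM at 4 h and 44.8, 46.3 and 52.4 CPM at 0 h, without overlap (log2 fold change 0.69 ± 0.12, adjusted p = 0.000129). The bS21m gene mrp21 had 84.5, 87.8 and 76.5 CPM at 4 h and 56.8, 57.7 and 64.1 CPM at 0 h (0.48 ± 0.11, adjusted p = 0.00184). The small subunit gene mrps18 had 56.0, 58.1 and 59.0 CPM at 4 h and 41.4, 45.4 and 48.6 CPM at 0 h (0.35 ± 0.11, adjusted p = 0.00865). The calls of the other two, mrpl37 (0.34, adjusted p = 0.0407) and mrp51 (0.31, adjusted p = 0.0332), were lost, leaving 3 risen, without any one of WT 0 h replicate 1 or 2, WT 4 h replicate 2 or 3, HASX 1 h replicate 1, HASX 2 h replicate 2 or 3 or HASX 4 h replicate 2. The members nearest to 0 included the uS14m gene mrp2, at -0.00.

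The fall in WT at 4 h and the difference between the strains at 1 h share no library. Of the 22 members that had fallen in WT at 4 h, 18 were lower in HASX at 1 h, and the other 4 were not called there. This is near the share over all members, of which 38 of 50 were lower in HASX at 1 h. Across the 50 members, which are not independent replicates, the 2 log2 fold changes had a Pearson correlation of 0.23 and a Spearman correlation of 0.25. The genes with the largest differences in HASX were not those with the largest fall in WT, as mrp17 fell by 0.34 on the log2 scale in WT at 4 h and mrp49 (-0.17) was not called there. Conversely, mrpl3, mrps26 and mrpl8, among the largest falls in WT, had log2 fold changes of -0.01, -0.09 and -0.44 in HASX against WT at 1 h, which did not pass the test. Others went down in both, as mrpl12, mrp5 and mrps28, also among the largest falls in WT, were lower in HASX at 1 h. In the fit without the library labelled HASX 4 h replicate 3 they were at -1.46, -1.34 and -1.23 in HASX at 1 h. In that fit mrp10 was at -1.92 in HASX at 1 h and at -0.74 in WT at 4 h.

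**Figure D4:**
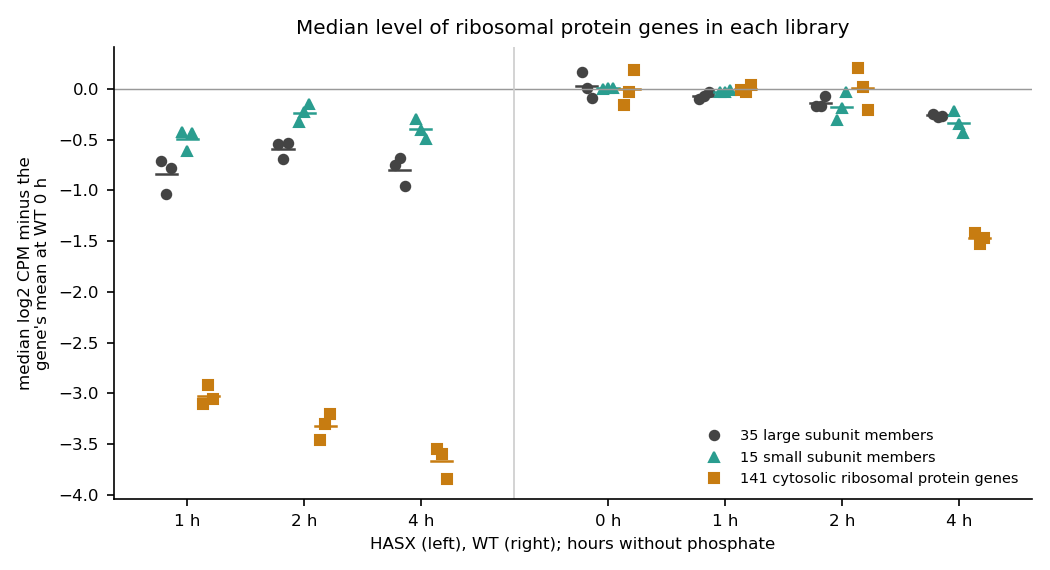
Median over the large subunit members, the small subunit members and the cytosolic ribosomal protein genes of log2 CPM relative to the mean of WT at 0 h, in each library (points; lines are means of 3), HASX left of WT. In the HASX libraries the large subunit medians lie at -1.04 to -0.53 and the small at -0.61 to -0.14. In the WT libraries at 4 h they lie at -0.28 to -0.24 and -0.44 to -0.22. The cytosolic ribosomal protein genes lie at -3.84 to -2.92 in HASX.

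The step from 1 h to 4 h of starvation was then compared within and between the strains. In WT, 13 members were lower at 4 h than at 1 h (19.9% of all genes) and 1 was higher (24.4%), with a median of -0.17 (8 lower and 5 higher with total-count scaling, 6 lower without WT 4 h replicate 2, and 31 lower and 7 higher in a fit of only the groups compared). In HASX, 12 were higher at 4 h than at 1 h (24%, near the 25.6% of all genes) and 3 lower (19.2% of all genes), with a median of 0.11, beside 0.06 over all genes. With total-count scaling the direction flipped in HASX, to 4 higher and 16 lower, with the members' median at -0.24 and that of all genes at -0.29. Relative to the median of all genes the HASX members thus stood at 0.05 with TMM and 0.04 with total counts. In HASX, 7 were higher without HASX 1 h replicate 3, and the 3 lower calls became 0 without the library labelled HASX 4 h replicate 3 and 1 without any one of the HASX 1 h libraries or HASX 4 h replicate 1. A fit of only the groups compared gave 3 higher and 1 lower in HASX, with a median of -0.01.

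The members called higher in HASX at 4 h against 1 h without any single library included mrp49, with 5.94, 5.88 and 4.45 CPM at 4 h and 2.38, 1.98 and 3.60 CPM at 1 h (log2 fold change 1.02 ± 0.23, adjusted p = 0.00137). Its value was 1.17 without the library labelled HASX 4 h replicate 3, 0.68 with total-count scaling (adjusted p = 0.0244) and 0.91 in the fit of only the groups compared, where the call was lost (adjusted p = 0.0718). The small subunit gene mrps16 had 150, 113 and 132 CPM at 4 h and 76.0, 89.8 and 85.6 CPM at 1 h (0.65 ± 0.13, adjusted p = 0.000369), or 0.31 with total-count scaling (adjusted p = 0.00196). The large subunit gene mrpl35 had 192, 193 and 153 CPM at 4 h and 113, 129 and 119 CPM at 1 h (0.58, adjusted p = 0.00078), or 0.23 with total-count scaling (adjusted p = 0.0121). The uL29m gene mrpl4 (0.53, adjusted p = 0.00317) lost its call with total-count scaling (0.18, adjusted p = 0.247) and in the fit of only the groups compared (0.41, adjusted p = 0.0744). Without the library labelled HASX 4 h replicate 3, mrps16, mrpl35 and mrpl4 were at 0.68, 0.70 and 0.71. The rise of mrpl9 (0.94, adjusted p = 0.0149) was 0.30 without the library labelled HASX 4 h replicate 3 (adjusted p = 0.295). It was 0.85 when HASX 1 h replicate 2 was left out (adjusted p = 0.0587) and 0.88 when HASX 1 h replicate 3 was (adjusted p = 0.0561), which also ended the call.

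The difference between the 2 changes, HASX minus WT, was itself tested as an interaction. It was positive in 14 members (28%, against 22.4% of all genes) and negative in 0 (21.7% of all genes), with a median of 0.33, beside 0.07 over all genes. In 6 of them it was at least 2-fold (12.8% of all genes), and 0 members had a negative difference of that size (9.99%). At an unadjusted p under 0.05, 20 were positive and 0 negative. Without the library labelled HASX 4 h replicate 3, 21 were positive, 8 of them by at least 2-fold, and 23 were positive at an unadjusted p under 0.05. The positive calls over all genes were then 1428, beside 1396 with it. Without WT 4 h replicate 2, WT 4 h replicate 3 or HASX 1 h replicate 2, 8, 9 and 9 were positive in that order. With total-count scaling the balance of calls flipped, to 4 positive and 9 negative, with the members' median at -0.05 and that of all genes at -0.30. The members' median thus lay above that of all genes under both scalings.

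Among these, mrpl12 had 33.0, 35.9 and 33.3 CPM at 4 h and 30.8, 20.0 and 27.4 CPM at 1 h in HASX, against 42.0, 34.6 and 43.2 CPM at 4 h and 72.6, 71.1 and 73.2 CPM at 1 h in WT. It was thus a little higher at 4 h than at 1 h in HASX (0.38, adjusted p = 0.0252, but 0.03 and not called with total-count scaling, adjusted p = 0.876) and lower in WT. The difference was 1.24 ± 0.19 (adjusted p = 2.93e-05), or 0.86 with total-count scaling (adjusted p = 0.00324). The gene mrp49 differed by 1.36 ± 0.31 (adjusted p = 0.00165), and mrp17 by 0.92 ± 0.20 (adjusted p = 0.00107). The difference of mrpl3 was 1.10 ± 0.28 (adjusted p = 0.00363) and that of mrps26 1.03 ± 0.31 (adjusted p = 0.0114), and neither passed the test with total-count scaling (0.73 and 0.65). That of mrps9 was 1.01 ± 0.24 (adjusted p = 0.00241), or 0.63 with total-count scaling (adjusted p = 0.114). With that scaling mrp49 differed by 0.99 (adjusted p = 0.0182) and mrp17 by 0.54 (adjusted p = 0.00475). Without the library labelled HASX 4 h replicate 3 the differences of mrpl12, mrp49, mrp17, mrpl3, mrps26 and mrps9 were 1.28, 1.51, 1.05, 1.16, 1.11 and 1.10, all called.

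Both subunits took part. At 1 h, 27 of 35 large subunit members and 11 of 15 small subunit members were lower in HASX, with medians of -0.73 and -0.68. Over all genes 37.8% were lower. Relative to WT at 0 h, the large subunit median lay below the small subunit median in every HASX library. The large subunit medians lay at -1.04 to -0.53 and the small at -0.61 to -0.14, a difference that was not tested. In WT at 4 h, 14 of 35 large and 8 of 15 small subunit members had fallen, with medians of -0.26 and -0.34, and 2 large and 3 small had risen. By name, 17 of 21 universal, 6 of 9 bacterial and 10 of 12 mitochondria-specific proteins had genes lower in HASX at 1 h, and 5 of the 8 without such a name. In WT at 4 h, 9 of 21 universal, 4 of 9 bacterial, 7 of 12 mitochondria-specific and 2 of 8 other members had fallen, while 3 bacterial members (mrp7, mrp21 and mrp51) and 0 universal members had risen. Over all genes 25% had fallen and 26.5% had risen there, so the 2 of 8 other members and the 3 of 9 bacterial members lay near those shares. The differences between these classes were not tested.

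In WT the log2 change at 4 h against 1 h correlated across the 50 members with log2 CPM per kb at 0 h, which comes from other libraries (Pearson 0.43, Spearman 0.45). For the HASX change at 4 h against 1 h the same correlations were -0.22 and -0.12. For the difference of the changes, HASX minus WT, they were -0.48 and -0.42, and 0.38 and 0.32 with transcript length. These are descriptions across genes that share the same libraries.

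The members were set beside other genes of mitochondrial translation. The 26 tested genes of mitoribosomal proteins with other names had 7 lower and 1 higher in WT at 4 h (median -0.18), and 18 lower and 4 higher in HASX at 1 h (median -0.77). Their share that had fallen in WT (26.9%) was near the 25% of all genes. In HASX at 1 h, 37.8% of all genes were lower and 36.4% higher. Among these, mug178 was lower by 2.86 and rsm10 by 2.78 on the log2 scale in HASX at 1 h. In WT at 4 h, rsm7 fell by 1.02 (adjusted p = 0.00122).

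Of 26 genes for mitochondrial gene expression, including pentatricopeptide repeat (PPR) proteins that bind mitochondrial RNAs, 12 had fallen and 1 had risen in WT at 4 h (median -0.47), and 18 were lower and 2 higher in HASX at 1 h (median -0.89). The largest difference was that of the PPR gene ppr8, at 22.6 ± 2.39 CPM in HASX and 191 ± 2.89 CPM in WT (SD, n = 3 each; log2 fold change -3.08, adjusted p = 1.53e-13). Of 23 genes for protein import through the translocases, 17 had fallen and 2 had risen in WT at 4 h (median -0.50), and 18 were lower and 3 higher in HASX at 1 h (median -1.18). Among them tim22, a subunit of the inner membrane carrier translocase, was lower by 3.62 on the log2 scale in HASX at 1 h. Over all genes, 25% had fallen and 26.5% had risen in WT at 4 h. In HASX at 1 h, 37.8% of all genes were lower and 36.4% higher.

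Mitochondrial translation factors and tRNA ligases were called in both directions in HASX, as were all genes (36.4% higher and 37.8% lower). Of 10 translation factor genes, 4 were higher and 1 lower in HASX at 1 h (median 0.07), and 0 had risen and 4 had fallen in WT at 4 h (median -0.31). The 1 lower was mrf1, the release factor gene (-1.71, adjusted p = 4.35e-05), while tsf1, the elongation factor Ts gene, was higher (1.08, adjusted p = 5.37e-07). Of 8 tRNA ligase genes, 4 were lower and 3 higher in HASX at 1 h (median -0.27), and 3 had fallen and 0 had risen in WT at 4 h (median -0.46). The shares of translation factors higher (40%) and of tRNA ligases higher (37.5%) were near that of all genes. The 1 of 10 translation factors lower was a smaller share than the 37.8% of all genes. In WT at 4 h, 25% of all genes had fallen and 26.5% had risen.

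Nuclear genes of the respiratory chain and ATP synthase, whose complexes contain the products of the mitoribosome, were mostly higher. Of 34, 28 had risen and 0 had fallen at 4 h (median 0.54), among them sdh2, the iron-sulphur subunit of succinate dehydrogenase, with 649 ± 44.9 CPM at 4 h and 375 ± 60.3 CPM at 0 h (SD, n = 3 each). In HASX at 1 h, 19 were higher and 2 lower (median 0.36), the 2 lower being cox6 and atp20. Over all genes, 26.5% had risen and 25% had fallen in WT at 4 h. In HASX at 1 h, 36.4% of all genes were higher and 37.8% lower. All 141 genes of cytosolic ribosomal proteins were lower in HASX at 1 h (median -2.98), and 139 had fallen in WT at 4 h (median -1.48). The 36 identifiers of the mitochondrial genome had 0 counts in all 21 libraries, so the products of the mitoribosome could not be followed.

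**Figure D5:**
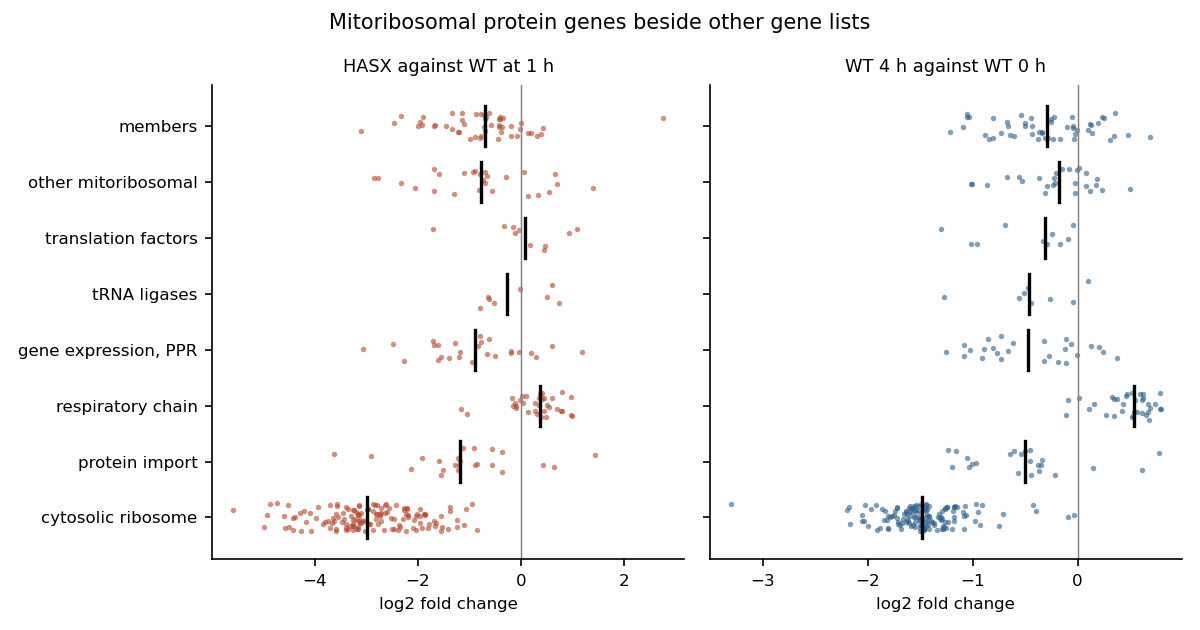
Log2 fold change of each gene of 8 lists (points) with the median of the list (line), in HASX against WT at 1 h (left) and in WT at 4 h against 0 h (right). The members' medians are -0.71 and -0.30, those of the cytosolic ribosomal protein genes -2.98 and -1.48, and those of the respiratory chain genes 0.36 and 0.54.

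Exons of 44 members overlap those of another annotated gene, 8 of them on the same strand and 43 on the opposite strand. Whether the counting used strand is not given in the sources used here, so reads of such pairs may be mixed. Of the 42 members without an overlap on the same strand, 34 were lower and 1 higher in HASX at 1 h (median -0.72), and 16 had fallen and 4 had risen in WT at 4 h (median -0.25). Of the 6 members without any overlap, 4 were lower and 0 higher in HASX at 1 h (median -0.47), among them mrp10, and 1 had fallen and 1 had risen in WT at 4 h (median -0.22). The calls of these 6 thus do not show the fall in WT. Over all genes, 37.8% were lower and 36.4% higher in HASX at 1 h. In WT at 4 h, 25% of all genes had fallen and 26.5% had risen. The same-strand partner of mrpl20, SPCC1393.12, was higher by 4.15 on the log2 scale in HASX at 1 h, opposite to mrpl20. The partner of mrps9, SPAC29A4.02c, was at 1426 CPM in WT at 0 h, far above mrps9 at 62.9, 52.8 and 38.5 CPM, and it was lower by 1.81 on the log2 scale in HASX at 1 h, as mrps9 was (adjusted p = 3.27e-05).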

How the data were processed

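PolyA RNA was sequenced paired-end from a TruSeq stranded mRNA kit, per the labels' protocols. HISAT2 2.1.0, SAMtools, HTSeq 0.10.0 and DESeq2 with build ASM294v2 are named in the submitters' processing notes, without settings. The authors deposited whole-number counts per gene and library in 2 tables, and tables of DESeq2 results against WT at 0 h. Those deposited tables hold log2 fold changes and adjusted p-values, per the file headers. In the authors' deposited table, there were 3 members lower and 2 higher in WT at 1 h against 0 h, 9 and 3 at 2 h, and 22 and 5 at 4 h, and its log2 fold changes differed from those computed here by at most 0.015 in WT.

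Symbols, product names and exons came from the ASM294v3 annotation (6836 identifiers matched by locus tag, 12 by synonym, 140 unmatched), which also gave transcript lengths for CPM per kb. Since the builds differ, no sequence was read, no coordinates are given and the planned promoter motif search was not run. The analysis ran in edgeR 4.0.16 (R 4.3.3), with filterByExpr, TMM and a quasi-likelihood fit of all 21 libraries with 1 mean per group (14 residual degrees of freedom, common biological coefficient of variation 0.212). A gene was called at a Benjamini-Hochberg adjusted p under 0.05 over the 6234 genes tested, and 754 were filtered out. CPM values are mean or single-library values, SE is the standard error of a log2 fold change, and the fit was checked on simulated data. DESeq2 1.42.0 served as an alternative beside other scalings, no filter, a replicate block, a fit of the groups compared alone and leaving out each library. The counts over members without overlapping exons and the values printed without HASX 4 h replicate 3 beside a result were added after the data were seen. Named members are the 6 largest changes in each direction per comparison, the 5 highest and 5 lowest levels and the 3 nearest to 0 in WT at 4 h, and up to 3 genes of each other list. Others were named after their values were seen. The members and lists were chosen with earlier results of these data known.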

Additional observations from a re-analysis of the deposited data

Results flagged for a closer look

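The test of the difference between the 1 h to 4 h changes of HASX and WT picked out 14 members, all with a positive difference on TMM-scaled counts. The largest log2 differences, HASX minus WT, were 1.36 in mrp49, 1.24 in mrpl12, 1.10 in mrpl3, 1.03 in mrps26, 1.03 in mrpl8 and 1.01 in mrps9. That of mrpl8 lost its call without WT 4 h replicate 2 (0.93, adjusted p = 0.0513), HASX 1 h replicate 2 (0.91, adjusted p = 0.0514) or HASX 4 h replicate 2 (0.84, adjusted p = 0.0734), and with total-count scaling (0.65, adjusted p = 0.211). With total-count scaling 4 members were positive and 9 negative, while the members' median stayed above that of all genes.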

How the results depend on the processing

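Of 444 values of named members under another setting 409 kept their direction and call, 35 lost the call and 0 changed sign. These are members among the largest changes of each comparison, so the sign changes at 4 h of mrp51 and mrpl16 in HASX against WT with total-count scaling are not among them. With 1 library left out, the numbers were 1441, 113 and 0 of 1554. Scaling by total counts without TMM gave 3 members higher in WT at 1 h against 0 h, a median of -0.28 in WT at 2 h against 0 h, 5 higher and 8 lower in WT at 4 h against 1 h, 4 higher and 16 lower with a median of -0.24 in HASX at 4 h against 1 h, a median of -0.81 in HASX against WT at 1 h, 3 higher with a median of -0.86 at 4 h, and 4 positive and 9 negative with a median of -0.053 in the difference of changes. Under this scaling the median over all genes in HASX against WT was -0.11 at 1 h and -0.43 at 4 h, and the members' median minus it was -0.70 and -0.42 on the log2 scale. A fit of only the groups compared gave 4 higher in WT at 1 h, 0 higher and 0 lower at 2 h, 7 higher and 31 lower in WT at 4 h against 1 h, 3 higher and 1 lower with a median of -0.0076 in HASX at 4 h against 1 h, and 4 higher in HASX against WT at 1 h. DESeq2 gave 3 lower in WT at 1 h. The cause of these moves was not tested.

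Same-numbered replicates did not deviate in the same direction (correlations of -0.66 to 0.19), so the numbers were not taken as pairs. In WT at 2 h and 0 h, replicates 1 and 3 deviated in opposite directions (-0.61 and -0.66), and the cause was not tested. With the replicate block, 1 member was higher in WT at 2 h, and no other count of members moved by over 1.5 times.

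Leaving out each library in turn gave, for WT at 1 h against 0 h, 0 to 2 higher, 0 to 4 lower and a median of -0.18 to -0.0017. For WT at 2 h it gave 0 to 6, 0 to 15 and -0.33 to -0.074, and for WT at 4 h 3 to 7, 13 to 28 and -0.38 to -0.22. For WT at 4 h against 1 h it gave 1 to 3, 6 to 15 and -0.20 to -0.17, and for HASX at 4 h against 1 h 7 to 13, 0 to 3 and 0.06 to 0.21. For HASX against WT it gave 2 to 2, 35 to 38 and -0.73 to -0.66 at 1 h, 8 to 15, 26 to 28 and -0.54 to -0.45 at 2 h, and 6 to 8, 24 to 28 and -0.44 to -0.29 at 4 h. For the difference of changes it gave 8 to 21, 0 to 0 and 0.21 to 0.42.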
